A study of Caenorhabditis elegans with 14 samples.

Results

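The strands described here are the star strands (miR*) that come from the 3p arm of *C. elegans* miRNA precursors. Of the 371 mature strands in the deposited count table, 157 are marked as star strands, and 54 of these carry the 3p name of a precursor whose guide is the 5p strand. The 35 that reached 10 counts in 2 or more of the 14 libraries were taken. Of the other 19, none reached 10 counts in any library. The highest was miR-50-3p with 9 counts, and miR-1817-3p and miR-251-3p stood at 0 in every library.

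A miRNA precursor is a hairpin that Dicer cuts to a short duplex of its 5p and 3p arms. An Argonaute, in *C. elegans* ALG-1 or ALG-2 for most miRNAs, keeps the guide strand and represses target mRNAs with it, while the star strand is usually removed and lost. The level of a star strand therefore depends on how much precursor is made and cut and on which arm is kept. HRPK-1 is an RNA-binding protein with KH domains, a homolog of the human hnRNPK, that co-precipitates with ALG-1.

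The libraries were made from whole animals of 5 groups, all grown at 20 °C on bacteria: L4 larvae of *hrpk-1(tm5522)* (2 libraries), *hrpk-1(zen17)* (3 libraries) and wild type, the strain N2 (3 libraries), and embryos of *hrpk-1(zen17)* and wild type (3 libraries each). *hrpk-1(zen17)*, here zen17, is a deletion made with CRISPR/Cas9 that leaves no HRPK-1 protein. *hrpk-1(tm5522)*, here tm5522, is an in-frame deletion that leaves a truncated protein, and the study's genetics class it as weakly semi-dominant and antimorphic. Each mutant was 1 strain, and embryos of tm5522 were not analysed here.

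Table totals lay between 1919348 counts in wild type embryo replicate 3 and 19762103 in wild type L4 replicate 3. A limit of 3 counts, the most that a count of 0 allows, is 1.56 ppm (counts of a strand over the table total of its library, times 1000000) in that shallow embryo library and between 0.152 and 0.430 ppm in the others. The stage labels held: 7 mir-35 family guides, abundant in embryos, summed to between 489223 and 760065 ppm in the 6 embryo libraries and to at most 1551 ppm at L4, and 5 guides of the let-7 and lin-4 families summed to at least 90389 ppm at L4 and at most 434 ppm in embryos. The genotype cannot be checked in a table of miRNAs. The labels do not say that replicates were separate cultures, so p-values measure the spread between these libraries. In whole animals, fewer cells that make a strand and less of it per cell cannot be told apart.

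The 35 star strands together were a small part of each library, and 1 of them, miR-229-3p, was the largest part of their sum in every library. Their summed share was 1025 and 1029 ppm in tm5522 L4 larvae, 1085, 1405 and 976 ppm in zen17 L4 larvae and 1623, 3875 and 924 ppm in wild type L4 larvae. In embryos it was 591, 1098 and 614 ppm in zen17 and 556, 689.7 and 1713 ppm in wild type. The highest value at L4 belonged to wild type replicate 2, where miR-229-3p alone took 78.0% of the summed share; in the other 13 libraries it took between 48.4% and 67.4%. The highest value in embryos belonged to the shallow wild type replicate 3. The ratio of mean summed shares was 0.48 for tm5522 against wild type L4 larvae (exact permutation test, two-sided, p = 0.6), 0.54 for zen17 against wild type L4 larvae (exact permutation p = 0.4), 0.89 for tm5522 against zen17 L4 larvae (exact permutation p = 0.6) and 0.78 for zen17 against wild type embryos (exact permutation p = 0.7). L4 larvae stood at 1.5 times the mean of embryos in zen17 and 2.17 times in wild type (exact permutation p = 0.3 for each). With 3 or fewer libraries a group, this test cannot give a p under 0.1, so the summed share is a description. Without wild type L4 replicate 2, zen17 L4 larvae differed from wild type by -118 ppm in place of -985 ppm, and tm5522 L4 larvae by -246 ppm in place of -1114 ppm. The ratio of L4 larvae to embryos in wild type was 1.29 without that library and 3.44 without wild type embryo replicate 3.

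**Figure D1:**
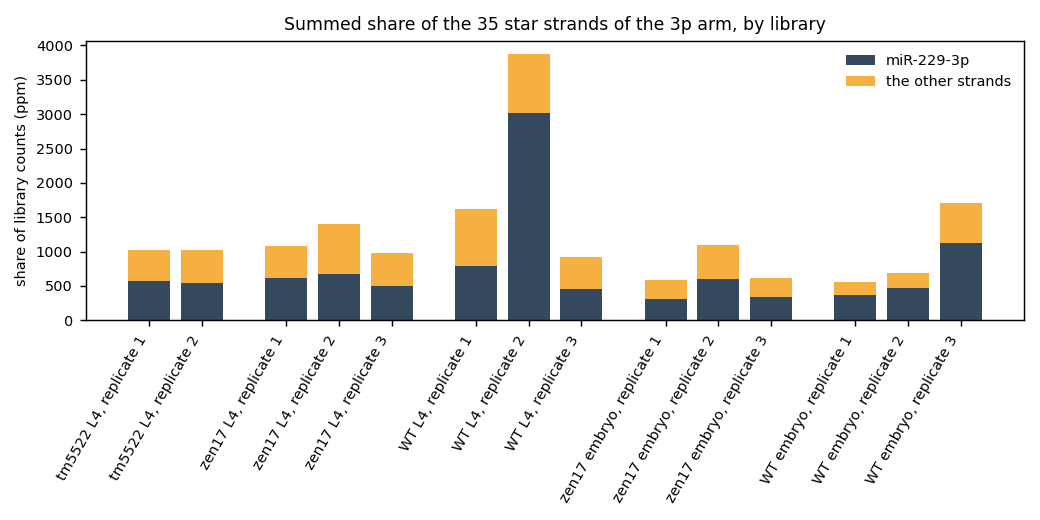
Summed share of library counts (ppm) of the 35 star strands in each of the 14 libraries, with miR-229-3p in dark and the other strands stacked on it in light. Wild type L4 replicate 2 stands above every other library through miR-229-3p, and tm5522 L4 libraries lie close together at 1025 and 1029 ppm.

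miR-229-3p belongs to the mir-64 family, named here by the guide, and its gene lies with mir-64, mir-65 and mir-66 in an intron of *gcn-1* (WBcel235 chromosome III, 2172452 to 2172566, same strand). It held 566 and 545 ppm in tm5522 L4 larvae, 610.3, 679 and 499.7 ppm in zen17 L4 larvae, 785, 3024 and 455 ppm in wild type at L4, 317, 604 and 338 ppm in zen17 embryos and 363, 465 and 1132 ppm in wild type embryos. Its highest value was in wild type L4 replicate 2 and its lowest were in zen17 embryo replicates 1 and 3, and no group stood apart from the rest. miR-65-3p, from the same intron, was also high in wild type L4 replicate 2: it had 0.715 and 1.02 ppm in tm5522 L4 larvae, 4.96, 3.24 and 2.32 ppm in zen17 L4 larvae and 3.59, 31.2 and 2.83 ppm in wild type L4 larvae. The 2 remaining stars of the cluster differed less there, with 4.03, 5.90 and 3.64 ppm for miR-66-3p and 0.704, 0.804 and 0.708 ppm for miR-64-3p in the 3 wild type L4 libraries.

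miR-71-3p was the next most abundant. Its guide miR-71-5p acts in lifespan and in neuronal fate, and its gene lies in an intron of *ppfr-1* (chromosome I, 9379927 to 9380020, same strand). The star held 148 and 143 ppm in tm5522 L4 larvae, 174, 317 and 172 ppm in zen17 L4 larvae and 353, 321 and 198 ppm in wild type L4 larvae. In embryos it held 40.6, 71.8 and 30.7 ppm in zen17 and 12.8, 14.9 and 33.9 ppm in wild type. Both tm5522 libraries lay under every other L4 library. miR-1829a-3p, from an intron of *gas-1* on chromosome X (15588311 to 15588370, same strand), had 72.9 and 94.9 ppm in tm5522 L4 larvae, 44.8, 43.8 and 50.8 ppm in zen17 L4 larvae and 41.7, 67.0 and 25.1 ppm in wild type L4 larvae. In embryos, miR-1829a-3p held 53.8, 99.5 and 40.4 ppm in zen17 and 23.9, 25.0 and 57.8 ppm in wild type, a range that overlapped with L4.

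miR-241-3p had 90.0 and 100.1 ppm in tm5522 L4 larvae, below the 3 zen17 and 3 wild type L4 libraries. miR-239a-3p had 23.5 and 29.5 ppm in tm5522 L4 larvae. miR-72-3p held 31.8, 29.5 and 42.3 ppm in zen17 embryos and 16.6, 19.1 and 24.5 ppm in wild type embryos, so that all 3 mutant embryo libraries lay above the wild type ones. miR-51-3p had 24.1, 49.7 and 15.0 ppm in zen17 embryos and 17.2, 17.8 and 33.3 ppm in wild type embryos, groups that overlapped. miR-52-3p had 5.54 and 8.06 ppm in tm5522 L4 larvae, within the range of the other L4 groups.

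Stars of other conserved guides were rarer, here as mean ± SD (n = 2 for tm5522, otherwise n = 3). miR-57-3p, whose guide acts in posterior cell fate, stood at 8.65 ± 1.12 ppm in tm5522 L4 larvae, 6.79 ± 1.17 ppm in zen17 L4 larvae, 10.5 ± 3.84 ppm in wild type at L4, and in embryos at 10.1, 12.6 and 8.60 ppm in the zen17 libraries and 7.34, 9.47 and 19.3 ppm in the wild type ones. miR-228-3p stood at 1.52 ± 0.00488 ppm in tm5522 L4 larvae, 2.49 ± 0.195 ppm in zen17 L4 larvae, 3.36 ± 1.41 ppm in wild type at L4, 5.35 ± 2.83 ppm in zen17 embryos and 5.21 ± 2.27 ppm in wild type embryos. miR-34-3p stood at 0.665 ± 0.323 ppm in tm5522 L4 larvae, 1.30 ± 0.363 ppm in zen17 L4 larvae, 3.26 ± 3.15 ppm in wild type at L4, 4.13 ± 1.77 ppm in zen17 embryos and 1.56 ± 1.81 ppm in wild type embryos. In the wild type groups the SD of miR-34-3p came close to or passed its mean, through L4 replicate 2 and embryo replicate 3. miR-244-3p stood at 1.32 ± 0.0916 ppm in tm5522 L4 larvae, 2.21 ± 0.701 ppm in zen17 L4 larvae, 2.92 ± 1.09 ppm in wild type at L4, 0.875 ± 0.502 ppm in zen17 embryos and 0.717 ± 0.751 ppm in wild type embryos.

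At the low end, miR-53-3p, miR-252-3p, miR-797-3p, miR-1818-3p and miR-4812-3p averaged under 2 ppm in every group. Between 26 and 33 of the 35 strands had at least 10 counts in an L4 library, against 12 to 25 in an embryo library, where the totals were also lower. miR-1829b-3p and miR-1829c-3p differed by at most 1 count in every library, so their values are not separate measurements; how the table counts reads that match both was not tested. The plot of all levels shows the let-7 family stars (let-7-3p, miR-48-3p, miR-84-3p, miR-241-3p) at or near 0 in embryos.

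**Figure D2:**
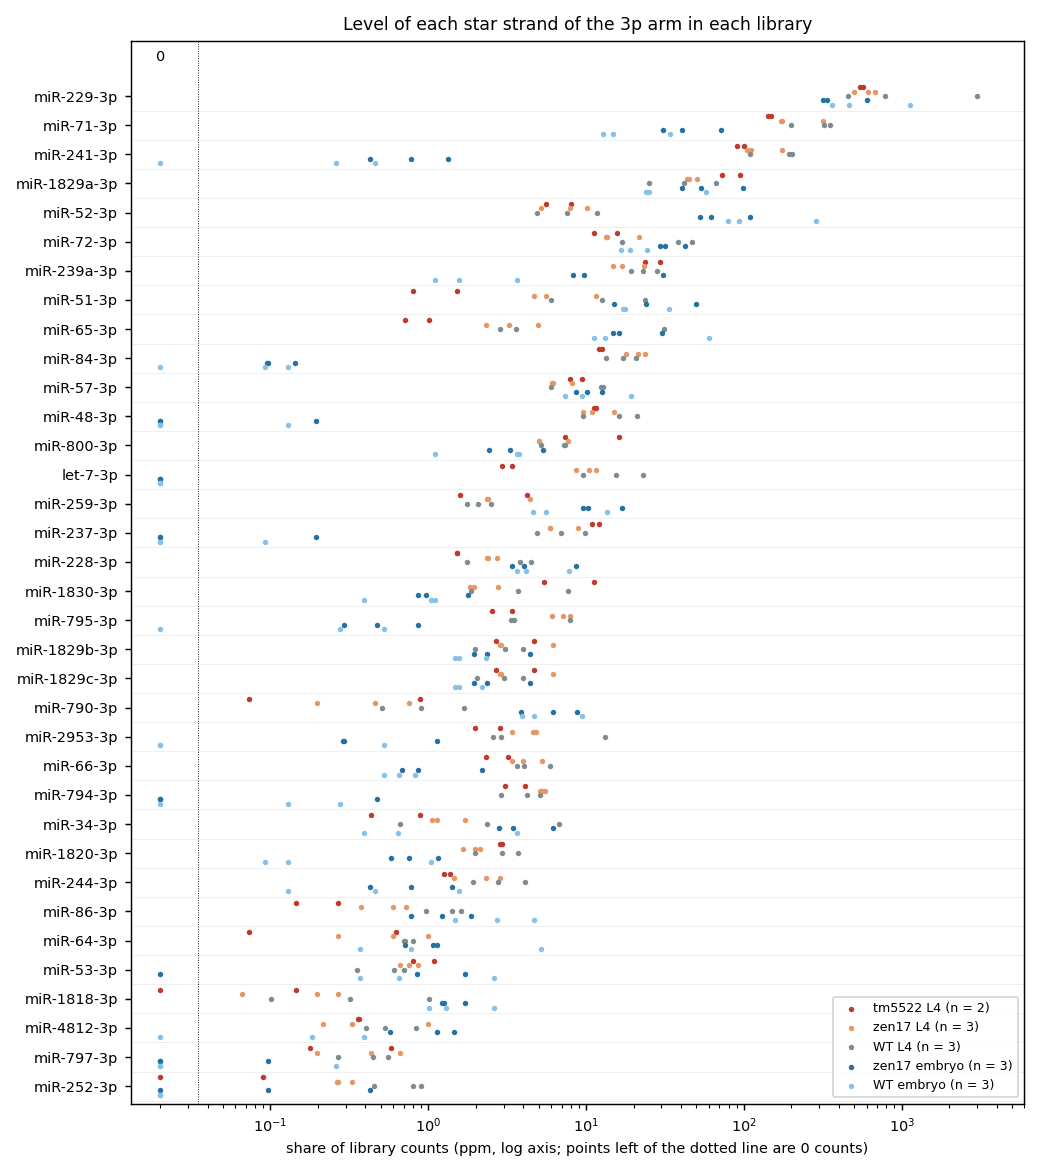
Share of library counts (ppm, log axis) of each of the 35 star strands, one point a library, coloured by group, with 0 counts drawn left of the dotted line. The let-7-3p points of all 6 embryo libraries lie at 0, and the miR-52-3p and miR-790-3p points of embryos lie right of those of L4 larvae.

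All 35 strands were matched to a gene in WBcel235 (Ensembl annotation, and RefSeq for let-7). Of these genes, 22 lay between protein-coding genes, 12 in an intron of a protein-coding gene on the same strand and 1 (mir-252) in an intron on the opposite strand. Chromosome X held 11, and 17 had another miRNA gene within 10 kb on the same strand. Clusters with more than 1 of the 35 were mir-229, mir-64, mir-65 and mir-66 on chromosome III, mir-48 and mir-241 on V, mir-51 and mir-53 on IV, mir-228 and mir-790 on IV, mir-794 and mir-795 on I, and mir-1829c and mir-4812 on X. The strands of a cluster can come from 1 transcript and are not independent of each other.

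The name star did not always fit the counts. For 9 of the 35 precursors, the 3p star held a median of more than 50% of the counts of both arms over the libraries with reads, for 17 under 1%, and for 9 between 1% and 50%. Of the 64 star strands from the 5p arm that met the same minimum, 6 had a median over 50%. miR-229-3p, miR-800-3p and miR-1829a-3p outnumbered their labelled guides in all 14 libraries, with 66.8% to 97.2%, 74.5% to 100% and 54.3% to 84.2% of both arms. miR-1818-3p did so in each of the 13 libraries with reads, but on 97 star counts and 1 guide count in all. miR-2953-3p (median 75.5%), miR-1830-3p (71.3%), miR-1829b-3p (68.3%), miR-4812-3p (61.3%) and miR-239a-3p (59.9%) did so in 9 to 13 libraries. For miR-1829b-3p this is not established, since its counts are nearly those of miR-1829c-3p, which had a median of 3.53% of the arms of mir-1829c. The guide and star labels are those of the table.

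**Figure D3:**
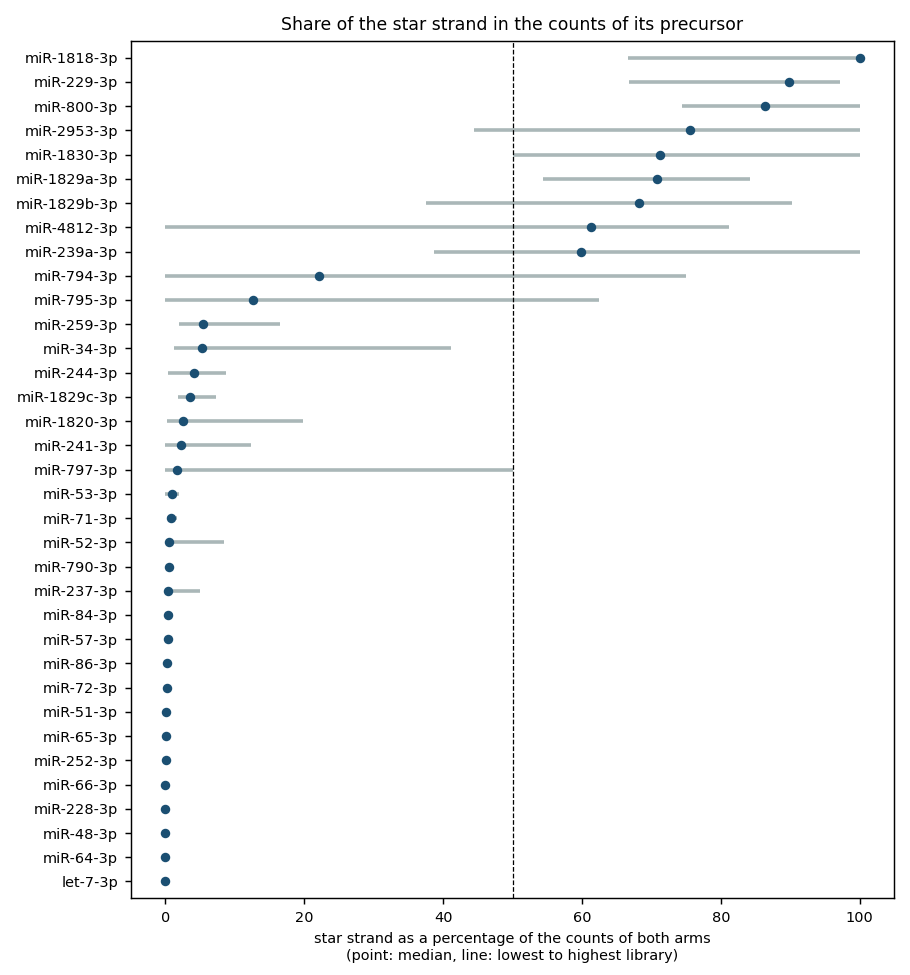
Star strand as a percentage of the counts of both arms for each of the 35 precursors, with the median (point) and the range (line) over the libraries with reads. The 9 precursors whose median lies right of the dashed line at 50% are led by miR-1818-3p, miR-229-3p and miR-800-3p.

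At the other end, 17 star strands had a median under 1% of both arms. let-7-3p made up at most 0.134% of both let-7 arms, miR-48-3p at most 0.163%, miR-228-3p (whose guide is known from glia) at most 0.0321%, and miR-64-3p at most 0.0903%. Some shares differed between stages. miR-34-3p held 1.75, 1.19 and 1.78% of both arms in zen17 L4 larvae and 17.6, 23.2 and 22.2% in zen17 embryos, and 2.75, 5.05 and 1.27% in wild type L4 larvae and 33.3, 15.0 and 41.2% in wild type embryos. Those wild type embryo shares rest on 7, 3 and 7 star counts and 14, 17 and 10 guide counts. miR-52-3p, of the mir-51 family that embryos need, held 0.518, 0.221 and 0.562% of both arms in zen17 L4 larvae and 2.80, 4.30 and 2.03% in zen17 embryos. In wild type, miR-52-3p held 0.454, 0.275 and 0.472% at L4 and 8.40, 7.20 and 4.64% in embryos. miR-239a-3p held 85.9 and 85.5% in tm5522 L4 larvae, 54.2, 48.2 and 55.8% in zen17 L4 larvae and 67.3, 41.8 and 64.0% in wild type L4 larvae.

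Between stages, star strands of the let-7 family and miR-237-3p, of the lin-4 family, were higher at L4. A smaller set, led by miR-52-3p and miR-790-3p, was lower. The star of lin-4 itself fell below the count minimum, with at most 2 counts in any library. By edgeR's quasi-likelihood test with Benjamini-Hochberg adjustment over all strands tested, 19 of 33 star strands of the 3p arm passed the threshold of 0.05 in zen17, 11 higher and 8 lower at L4, where 72.7% of all strands tested passed (34.0% higher, 38.7% lower). In wild type, 19 of 31 passed, 14 higher and 5 lower, where 72.2% of all strands passed (40.9% higher, 31.3% lower). The share called among the star strands of the 3p arm was thus under the background in both genotypes. Star strands of the 5p arm passed in 44 of 56 cases in zen17 and in 42 of 54 in wild type. These differences, and their dependence on the counts of the strands, were not tested. The L4 and embryo libraries did not overlap in ppm for 24 of the 33 in zen17 (76.1% of all strands) and for 19 of the 31 in wild type (64.3%). The median log2 change was 0.27 in zen17, against -0.27 over all strands, and 1.04 in wild type, against 0.38 over all strands, and neither median moves when strands at 0 in embryos are set at the bounds that 3 counts give. Some strands reached 10 counts at 1 stage alone and could hardly be called the other way: in zen17, 6 of the 11 higher and 1 of the 8 lower calls, and in wild type, 11 of the 14 higher calls. Of the strands that reached it at both stages, 12 of 25 passed in zen17 (5 higher, 7 lower) and 8 of 19 in wild type (3 higher, 5 lower). The guides of the same precursors passed in 21 of 33 cases in zen17 (15 higher, 6 lower) and in 18 of 32 in wild type (16 higher, 2 lower). The comparisons share no library, and 15 star strands were called in both, all in the same direction (11 higher, 4 lower), which is 78.9% of each list.

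The let-7 family times larval development: let-7 promotes the change to the adult, and miR-48, miR-84 and miR-241 together control an earlier larval step. let-7-3p had 174, 131 and 195 counts in the zen17 L4 libraries and 0 in all 3 embryo libraries, which makes it at least 95.1-fold higher at L4 against 3 counts over the group. In wild type it had 357, 230 and 190 counts at L4 and 0 in the 3 embryo libraries, at least 106-fold higher. miR-241-3p held 104, 174 and 111 ppm in zen17 L4 larvae and 0.776, 1.33 and 0.430 ppm in zen17 embryos (log2 fold change 7.15, SE 0.39, edgeR adjusted p = 4.77e-09). In wild type, miR-241-3p held 202, 195 and 109.7 ppm at L4 and 0.459, 0.259 and 0 ppm in embryos (log2 fold change 8.45, SE 0.56, edgeR adjusted p = 2.35e-07).

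miR-48-3p and miR-84-3p rested on very few embryo counts. miR-48-3p had 571 counts at L4 and 2 in embryos over the zen17 libraries, a ratio of pooled shares of 163 (95% counting interval 44.9 to 1349), and 756 and 1 in wild type, a ratio of 309 (55.2 to 12202). miR-84-3p had 1014 and 3 counts in zen17, a ratio of 193 (65.8 to 937), and 844 and 2 in wild type, a ratio of 172 (47.5 to 1424). miR-237-3p, the star of a lin-4 paralog, had 334 counts at L4 and 2 in embryos in zen17 (ratio 95.3, interval 26.2 to 790) and 351 and 1 in wild type (ratio 143, interval 25.5 to 5674). miR-2953-3p had 293 counts at L4 and 1 in embryos in wild type (ratio 119.6, interval 21.3 to 4739), and was higher at L4 by 2.94 on the log2 scale in zen17 (edgeR adjusted p = 5.83e-04). Each of these 4 strands passed the edgeR test in both genotypes. miR-794-3p and miR-795-3p, stars of further guides of the let-7 family, were higher by 4.90 and 3.71 on the log2 scale in zen17 and by 3.88 and 4.05 in wild type (edgeR adjusted p at most 3.15e-04). miR-71-3p rose at L4 by 2.14 in zen17 (SE 0.28, edgeR adjusted p = 2.29e-05) and by 3.73 in wild type (SE 0.31, edgeR adjusted p = 1.43e-06), as did its guide (1.69 and 3.34). All 6 let-7 family stars were thus among the strands called higher at L4 in both genotypes. This tally is a description: apart from miR-241-3p in zen17, none of the 6 reached 10 counts in an embryo library, so each was tested through its L4 counts and a lower call was hardly possible. No let-7 family star could be tested between genotypes in embryos.

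In the mir-51 family, miR-52-3p held 7.87, 5.16 and 10.1 ppm in zen17 L4 larvae and 52.7, 109 and 62.2 ppm in zen17 embryos (log2 fold change -3.17, SE 0.44, edgeR adjusted p = 3.10e-05). In wild type it held 7.56, 11.8 and 4.86 ppm at L4 and 79.4, 92.6 and 286 ppm in embryos (log2 fold change -4.30, SE 0.32, edgeR adjusted p = 5.08e-07). The guide miR-52-5p did not pass in either (-0.48 with SE 0.31, and -0.17 with SE 0.41). miR-51-3p fell by 2.10 on the log2 scale in zen17 L4 larvae against embryos (edgeR adjusted p = 1.64e-04), and was at -0.74 in wild type (edgeR adjusted p = 0.214). miR-53-3p was tested in zen17 alone, at -0.09.

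miR-790-3p, from a gene beside mir-228 on chromosome IV, had 0.463, 0.198 and 0.754 ppm in zen17 L4 larvae against 3.88, 8.80 and 6.16 ppm in zen17 embryos (-3.63, SE 0.58, edgeR adjusted p = 1.05e-04), and 0.896, 1.67 and 0.506 ppm in wild type L4 larvae against 3.94, 4.67 and 9.38 ppm in wild type embryos (-2.77, SE 0.41, edgeR adjusted p = 9.55e-05). Its L4 and embryo libraries did not overlap in either genotype. miR-259-3p had 2.38, 4.43 and 2.37 ppm in zen17 L4 larvae against 10.3, 16.8 and 9.60 ppm in zen17 embryos (-2.10, edgeR adjusted p = 6.99e-05), and 2.50, 2.08 and 1.77 ppm in wild type L4 larvae against 4.59, 5.58 and 13.5 ppm in wild type embryos (-1.91, edgeR adjusted p = 0.00104). miR-1818-3p had 1, 3 and 5 counts in zen17 L4 larvae against 13, 13 and 12 in zen17 embryos (-2.96, edgeR adjusted p = 0.00208), and 5, 15 and 2 in wild type L4 larvae against 11, 10 and 5 in wild type embryos (-2.06, edgeR adjusted p = 0.00955). For both strands, too, the shares of the stages did not overlap within a genotype. For miR-1818-3p in wild type they nearly met, at 1.005 ppm in L4 replicate 2 and 1.009 ppm in embryo replicate 1.

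miR-65-3p fell by 2.50 in zen17 L4 larvae against embryos (SE 0.42, edgeR adjusted p = 1.62e-04), with 4.96, 3.24 and 2.32 ppm against 14.8, 30.4 and 16.2 ppm. In wild type it was at -1.35 (SE 0.64, edgeR adjusted p = 0.0787), with 3.59, 31.2 and 2.83 ppm at L4 and 11.3, 13.2 and 60.4 ppm in embryos, groups that overlapped through L4 replicate 2.

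Strands called in 1 genotype alone were miR-34-3p, miR-51-3p, miR-65-3p and miR-72-3p in zen17, all lower at L4, and miR-239a-3p, miR-1820-3p and miR-1830-3p, higher at L4, with miR-86-3p, lower at L4, in wild type. The interaction test called 1 of them different between genotypes, miR-239a-3p. In wild type the call of miR-1818-3p was lost without L4 replicate 1 or 3 and with library totals as the scale, that of miR-86-3p without L4 replicate 1 or 3 or embryo replicate 2, with library totals or with no filter, and that of miR-1830-3p without embryo replicate 2. In zen17 the call of miR-244-3p was lost without L4 replicate 1 or 3 or embryo replicate 3, with no filter or with a replicate block.

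**Figure D4:**
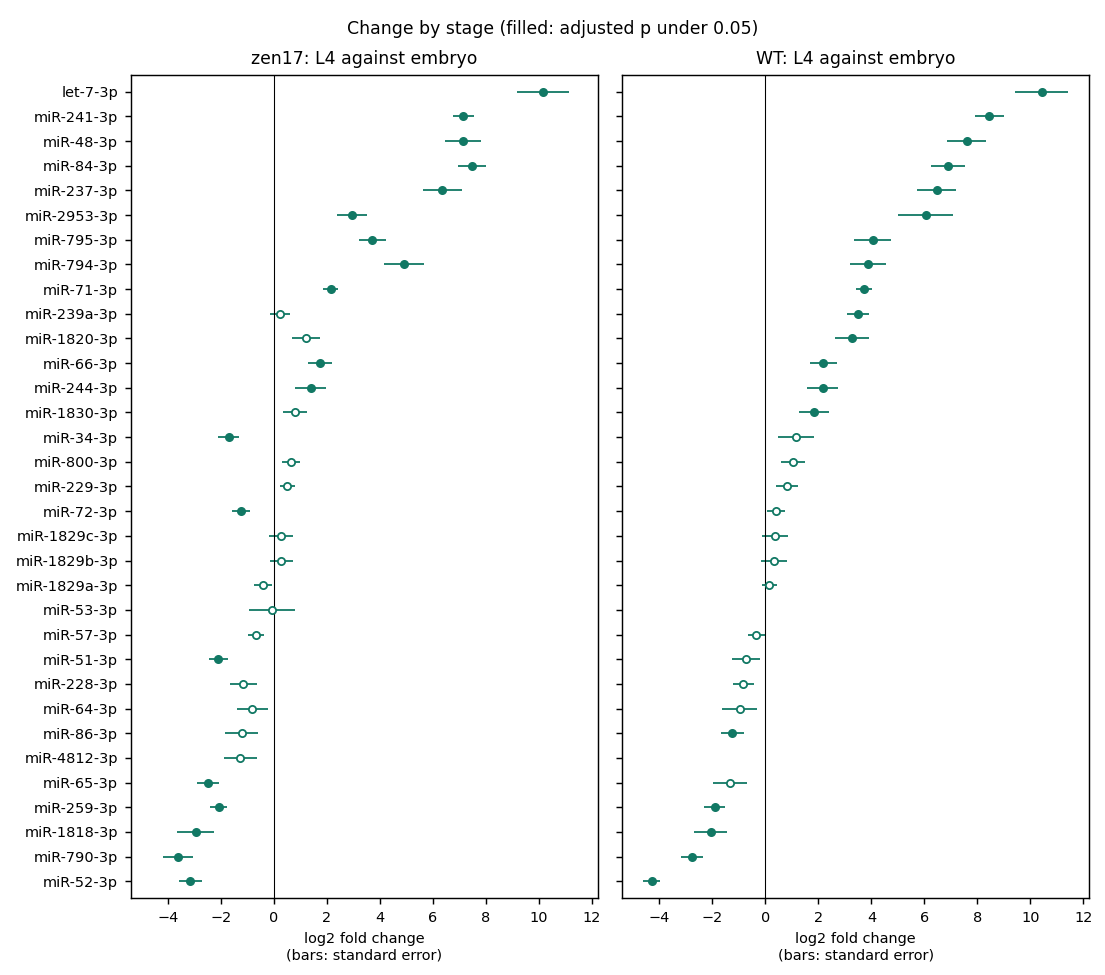
Log2 fold change of L4 larvae against embryos, with its standard error, for each star strand tested in zen17 (left) and in wild type (right); filled points passed an adjusted p of 0.05. let-7-3p, miR-241-3p, miR-48-3p, miR-84-3p and miR-237-3p lie furthest right and miR-52-3p and miR-790-3p furthest left in both panels; the let-7-3p point rests on 0 embryo counts and depends on the prior count of the fit.

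In embryos, zen17 and wild type were compared on the 20 star strands with enough counts. miR-239a-3p and miR-71-3p were higher in the mutant, and miR-52-3p and miR-229-3p were lower, so 4 of 20 passed (2 higher, 2 lower) where 17.9% of all strands tested passed (10.4% higher, 7.46% lower). The median log2 change of the 20 was -0.10, against -0.08 over all strands. Of the guides of the same precursors, 6 of 27 passed, 5 higher and 1 lower. In wild type, miR-239a-3p and miR-71-3p were also called higher, and miR-52-3p lower, at L4 than in embryos. miR-229-3p was not called by stage. Whether the embryos of both genotypes were of the same age was not tested.

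miR-239a-3p is the star of a guide implicated in stress resistance and lifespan, from a gene on chromosome X (11792445 to 11792542) between protein-coding genes. It held 9.70, 30.6 and 8.31 ppm in zen17 embryos, against 1.10, 1.56 and 3.65 ppm in wild type embryos, and the groups did not overlap, as for 2 of the 20 star strands and 18.4% of all strands (log2 fold change 2.59, SE 0.43, edgeR adjusted p = 0.00195). The guide miR-239a-5p was also called higher, with 12.8, 33.7 and 13.2 ppm against 0.459, 0.519 and 0 ppm (log2 fold change 4.74, SE 0.52, edgeR adjusted p = 1.33e-04). The wild type values of the guide are 5, 4 and 0 counts, so its fold change depends on the prior count, and the star to guide ratio did not pass (-2.59, limma adjusted p = 0.278). The call of the star held in all 12 alternatives that could be fitted, with changes between 2.11 and 3.13. The wild type embryo values of the star rest on 12, 12 and 7 counts, the last from the shallow replicate 3.

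The other calls were less stable, and their groups overlapped in ppm. miR-71-3p had 40.6, 71.8 and 30.7 ppm in zen17 embryos and 12.8, 14.9 and 33.9 ppm in wild type (0.86, SE 0.25, edgeR adjusted p = 0.0383), and its guide was also called higher (1.51, edgeR adjusted p = 0.00440). miR-52-3p had 52.7, 109 and 62.2 ppm against 79.4, 92.6 and 286 ppm (-1.29, SE 0.27, edgeR adjusted p = 0.00728), with its guide at -0.14. miR-229-3p had 317, 604 and 338 ppm against 363, 465 and 1132 ppm (-0.94, SE 0.24, edgeR adjusted p = 0.0250), with its guide at 0.73. The highest value of all 3 in wild type was that of the shallow replicate 3. With library totals as the scale, where the median over all strands is 0.31 in place of -0.08, only miR-239a-3p passed, as it did without zen17 embryo replicate 1 or 3, and 2 passed without wild type embryo replicate 1 or 2.

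At L4, 0 of 31 star strands passed in zen17 against wild type by edgeR, as did 0.0% of the 228 strands tested. This differs from the study, which used DESeq and reported some mature miRNAs higher (such as miR-70) and some lower (such as miR-86) in zen17 L4 larvae. The groups did not overlap for 1 of the 31, against 14.9% of all strands. Unadjusted, miR-72-3p and miR-86-3p had p under 0.05, both lower in the mutant. miR-72-3p had 13.5, 21.6 and 13.4 ppm in zen17 and 38.4, 46.8 and 17.0 ppm in wild type (-0.95, SE 0.26, edgeR adjusted p = 0.177), and DESeq2 called it alone, at -1.05 (adjusted p = 0.0321). With library totals as the scale miR-65-3p was called alone (-1.84), and without wild type L4 replicate 2 miR-51-3p alone (-1.55). These were chosen after their values were seen. The median log2 change of the 31 was -0.29, against 0.04 over all strands, and that of the 33 guides of the same precursors tested was 0.28, with 0 called by edgeR and 8 at an unadjusted p under 0.05 (7 higher, 1 lower).

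In tm5522 L4 larvae, let-7-3p, miR-51-3p, miR-71-3p, miR-72-3p, miR-86-3p and miR-252-3p were called lower than in wild type L4 larvae and no strand was called higher by edgeR: 6 of 32 passed, where 22.4% of all strands tested passed (10.3% higher, 12.1% lower). The libraries did not overlap for 17 of the 32, 4 higher and 13 lower in tm5522, against 48.7% of all strands. The median log2 change of the 32 was -0.71, against -0.09 over all strands. Of the guides of the same precursors, 12 of 33 passed, 9 higher and 3 lower.

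let-7-3p held 2.95 and 3.41 ppm in tm5522 L4 larvae, against 22.9, 15.4 and 9.61 ppm in wild type (log2 fold change -2.31, SE 0.38, edgeR adjusted p = 0.0140). Its guide let-7-5p did not pass and was at 1.03 (SE 0.53, edgeR adjusted p = 0.191), with 47805 and 45644 ppm against 29966, 11489.8 and 21644 ppm. The study, with DESeq, did report let-7 as significantly more abundant in tm5522 at L4, with a similar trend on Northern blots. miR-51-3p held 0.804 and 1.53 ppm in tm5522 L4 larvae, against 23.6, 6.03 and 12.7 ppm in wild type (-3.67, SE 0.81, edgeR adjusted p = 0.0300). The mutant and wild type libraries did not overlap for either star.

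miR-71-3p, with both tm5522 libraries under the 3 wild type L4 libraries, fell by 1.00 (SE 0.27, edgeR adjusted p = 0.0435), while its guide rose by 1.04 (edgeR adjusted p = 0.0341), with 47336 and 44177 ppm against 21288, 32971 and 14632 ppm. miR-72-3p, whose guide is of the miR-31 family, had 11.2 and 15.7 ppm against 38.4, 46.8 and 17.0 ppm (-1.27, SE 0.32, edgeR adjusted p = 0.0405). miR-86-3p had 3 and 2 counts against 22, 24 and 19 counts (-2.66, SE 0.55, edgeR adjusted p = 0.0258), and miR-252-3p 1 and 0 counts against 14, 12 and 9 counts (-3.88, SE 0.97, edgeR adjusted p = 0.0378). These last 2 reached the minimum of 10 counts in wild type libraries alone, so they could hardly be called other than lower, and their calls are no independent result. Of the 29 star strands that reached it in libraries of both groups, 4 passed, all lower.

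With 2 libraries of tm5522, the count of 6 depended on single libraries. It was 0 without either tm5522 library, where the remaining one is assumed to vary like the wild type, and 2, 14 and 3 without wild type L4 replicate 1, 2 and 3. The 14 included 3 called higher, miR-237-3p, miR-1829a-3p and miR-1830-3p, and DESeq2 and the fit over all 14 libraries also called miR-1829a-3p higher (0.95 and 0.99). miR-65-3p, at -3.58 (SE 1.09, edgeR adjusted p = 0.0588), missed the threshold but was called lower in 8 of its alternatives, each of those without a wild type library included, with -2.12 without wild type L4 replicate 2. The change of let-7-3p lay between -2.50 and -1.98 over its 12 alternatives and that of miR-51-3p between -4.25 and -3.11.

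The mutants were also compared with each other at L4, where 9 of 29 star strands passed, 4 higher and 5 lower in tm5522 than in zen17, and 38.4% of all strands tested passed (17.9% higher, 20.5% lower). The libraries did not overlap for 18 of the 29, against 59.8% of all strands. miR-1830-3p, from an intron of *paic-1* on chromosome II (4371838 to 4371907), was higher, with 11.2 and 5.45 ppm in tm5522 and 1.85, 2.78 and 1.94 ppm in zen17 (1.83, SE 0.33, edgeR adjusted p = 0.00253), and so was its guide (1.80). miR-800-3p had 16.3 and 7.41 ppm against 5.03, 7.67 and 5.06 ppm (0.91, edgeR adjusted p = 0.0436), miR-1829a-3p 72.9 and 94.9 ppm against 44.8, 43.8 and 50.8 ppm (0.74, edgeR adjusted p = 0.0429) and miR-237-3p 12.1 and 10.9 ppm against 5.96, 8.87 and 5.92 ppm (0.66, edgeR adjusted p = 0.0416). Of these 4, the groups of miR-800-3p overlapped.

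The lower strands were led by miR-51-3p, with 0.804 and 1.53 ppm in tm5522 and 5.56, 11.6 and 4.68 ppm in zen17 (-2.64, SE 0.42, edgeR adjusted p = 0.00151). miR-65-3p had 0.715 and 1.02 ppm against 4.96, 3.24 and 2.32 ppm (-2.10, SE 0.49, edgeR adjusted p = 0.00800). Of the let-7 family, let-7-3p had 2.95 and 3.41 ppm against 11.5, 8.67 and 10.5 ppm (-1.8, SE 0.32, edgeR adjusted p = 0.00253), miR-795-3p 3.39 and 2.54 ppm against 7.15, 7.87 and 6.08 ppm (-1.35, edgeR adjusted p = 0.00455) and miR-84-3p 12.1 and 12.7 ppm against 21.2, 23.8 and 17.9 ppm (-0.85, edgeR adjusted p = 0.0148). For all 5, both tm5522 libraries lay under the 3 zen17 libraries. The count was 5 without tm5522 replicate 2 or zen17 replicate 1, and 14 without zen17 replicate 2. The calls of let-7-3p, miR-51-3p and miR-1830-3p held in all of their alternatives. Those of miR-237-3p, miR-800-3p, miR-1829a-3p and miR-84-3p were each lost without at least 2 of the 5 libraries and that of miR-795-3p without tm5522 replicate 2, and miR-800-3p stood at 0.28 without tm5522 replicate 1, its highest library.

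Each star was then set against its own guide, as the log2 of the star to guide ratio with a pseudocount of 0.5, tested with limma. This ratio does not depend on the scaling of the libraries. In tm5522 against wild type L4 larvae, 13 of 32 ratios passed, 12 lower and 1 higher, where 35.3% of all 85 pairs tested passed (15.3% higher, 20.0% lower). Of 53 star strands from the 5p arm in the same test, 17 passed, 12 higher and 5 lower, a split whose difference from that of the 3p arm was not tested. The median change was -0.88 for the 3p stars and 0.01 for the 5p stars.

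The largest fall was that of let-7-3p, with log2 ratios of -13.96 and -13.69 in tm5522 L4 larvae, against -10.35, -9.54 and -11.13 in wild type (difference -3.49, SE 0.57, limma adjusted p = 0.00279). Within the let-7 family, miR-84-3p (-2.53), miR-241-3p (-1.60) and miR-795-3p (-1.65) passed as well, while miR-48-3p was at -0.96 (SE 0.59, limma adjusted p = 0.236) and miR-794-3p at -0.02. miR-84-3p had log2 ratios of -10.33 and -10.46 in tm5522 and -7.57, -8.16 and -7.84 in wild type, and its guide was higher in the mutant, with 15538 and 17942 ppm against 3946, 4898 and 3084 ppm (log2 fold change 2.07, edgeR adjusted p = 0.00648).

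In the mir-64 family, the ratios of miR-65-3p (-3.28, SE 1.10), miR-229-3p (-2.66, SE 0.63) and miR-66-3p (-2.47, SE 0.48) passed and that of miR-64-3p was at -1.07 (SE 0.75). miR-229-3p had log2 ratios of 1.54 and 1.01 in tm5522 and 3.38, 5.09 and 3.32 in wild type, so that the star outnumbered its guide in all 5 libraries but by less in the mutant. miR-65-3p had log2 ratios of -15.60 and -15.06 in tm5522 and -13.52, -9.30 and -13.34 in wild type, and the difference was -1.91 without wild type L4 replicate 2. The guide of miR-229-3p, miR-229-5p, stood at 195 and 270.4 ppm in tm5522 and 75.4, 88.6 and 45.5 ppm in wild type (log2 fold change 1.76, edgeR adjusted p = 0.0118). The other ratios that fell were those of miR-51-3p (-2.90), miR-1820-3p (-2.90), miR-228-3p (-2.28), miR-252-3p (-2.23) and miR-71-3p (-2.03). For miR-1820-3p the star overlapped, with 2.95 and 2.83 ppm in tm5522 and 2.95, 3.68 and 1.97 ppm in wild type. Its guide was higher, with 111.9 and 108.2 ppm against 17.16, 14.87 and 11.03 ppm. For miR-66-3p and miR-228-3p both tm5522 libraries lay lower in the star and higher in the guide than all wild type L4 libraries. For miR-51-3p the star lay lower and the guide within the wild type range. For miR-252-3p both strands lay lower. The ratio of miR-252-3p rests on 1 and 0 star counts in the mutant, a pseudocount of 5 moved it to -0.03, and the strand was tested through its wild type counts alone. Without it, 11 lower ratios remain among the 29 strands that reached 10 counts in both groups.

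miR-239a-3p was the exception. Its log2 ratio was 2.60 and 2.55 in tm5522 L4 larvae, against 1.04, -0.48 and 0.83 in wild type (2.11, SE 0.57, limma adjusted p = 0.0160). The star itself was at 0.14 (edgeR adjusted p = 0.719), and the guide fell, with 3.84 and 5.01 ppm against 13.6, 32.0 and 10.8 ppm (log2 fold change -2.0, edgeR adjusted p = 0.0210). Without tm5522 replicate 1 the count of 13 was 5, and without replicate 2 it was 3; the ratios of let-7-3p, miR-84-3p and miR-1820-3p were called in each of their alternatives.

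Against zen17 L4 larvae, 11 of 29 ratios passed in tm5522, 10 lower and 1 higher, where 33.3% of all pairs passed (19.2% higher, 14.1% lower), and of 49 5p stars 15 passed, 14 higher and 1 lower. This comparison shares the tm5522 libraries with the one against wild type. The log2 ratio of let-7-3p was -10.97, -12.03 and -11.03 in zen17 L4 larvae (-2.48 for tm5522 against it, SE 0.41, limma adjusted p = 0.00848), and those of miR-84-3p (-2.45), miR-51-3p (-2.38) and miR-229-3p (-1.78) were lower too. The ratio of miR-239a-3p was higher by 2.42 (SE 0.30, limma adjusted p = 0.00329). Without zen17 L4 replicate 3 the count was 5.

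**Figure D5:**
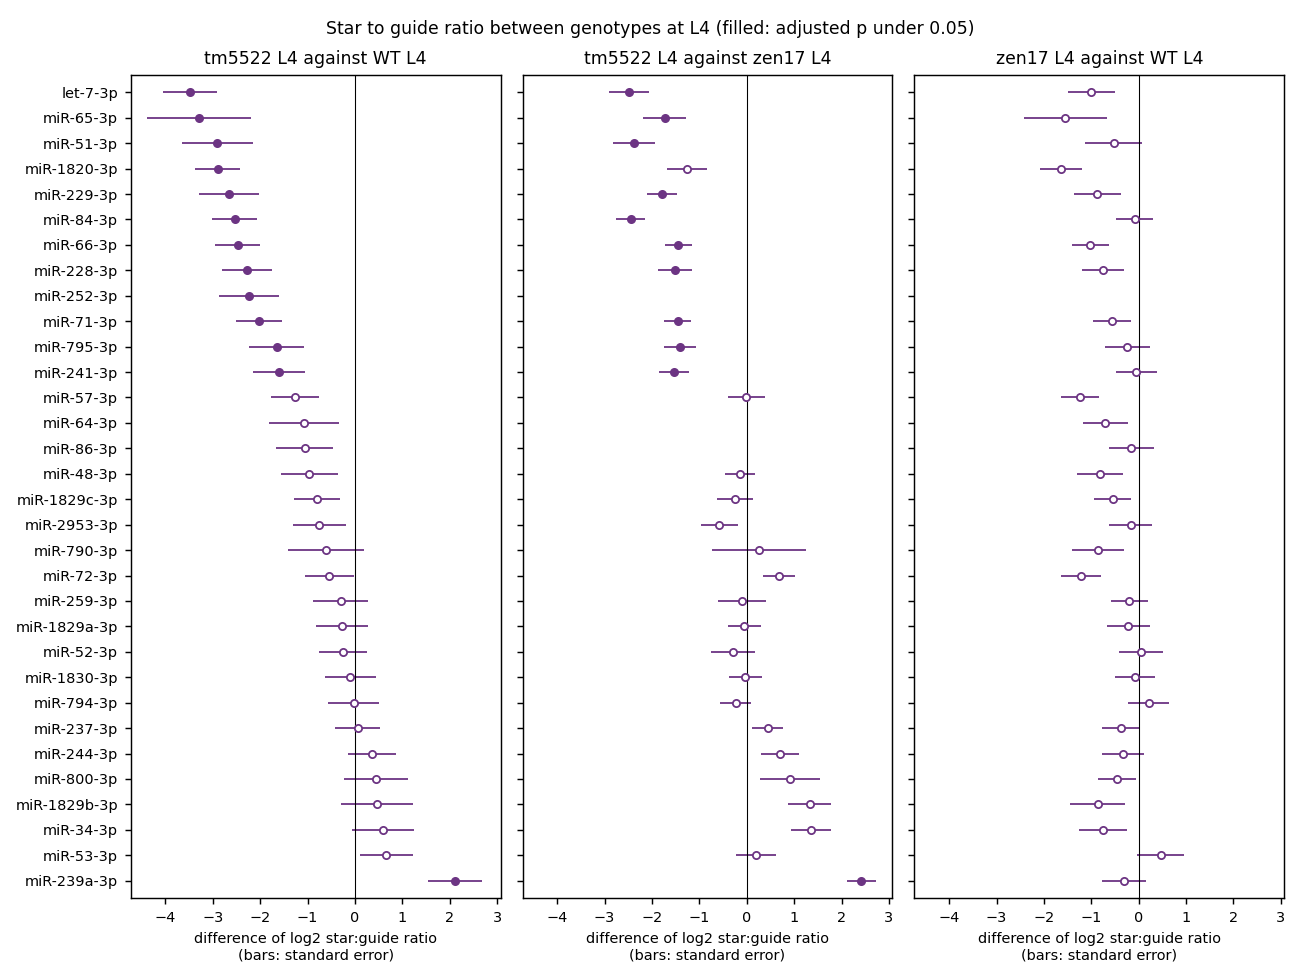
Difference of the log2 star to guide ratio with its standard error for each star strand tested at L4: tm5522 against wild type (left), tm5522 against zen17 (middle) and zen17 against wild type (right), which share libraries; filled points passed an adjusted p of 0.05. The 12 filled points left of 0 in the left panel run from let-7-3p at -3.49 to miR-241-3p at -1.60, miR-239a-3p is filled at 2.11, and no point of the right panel is filled.

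Against wild type, no ratio passed in zen17 at either stage: 0 of 31 at L4 and 0 of 20 in embryos by limma, with a background of 0.0% in both. At an unadjusted p under 0.05, 4 ratios were lower at L4 (miR-1820-3p, miR-57-3p, miR-72-3p and miR-66-3p) and 4 were lower in embryos (miR-239a-3p, miR-229-3p, miR-228-3p and miR-52-3p). The median change was -0.53 at L4 and -0.53 in embryos, against -0.37 and -0.51 over all pairs. The lowest were miR-1820-3p at L4 (-1.64, SE 0.44, limma adjusted p = 0.154) and miR-239a-3p in embryos (-2.59, SE 0.72, limma adjusted p = 0.278).

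Between stages, 11 of 33 ratios passed in zen17, 1 higher and 10 lower at L4, where 39.3% of all pairs passed (12.4% higher, 27.0% lower), and 11 of 31 in wild type, 4 higher and 7 lower, where 51.8% passed (14.1% higher, 37.6% lower). In zen17 the count was 5, 6 and 7 without L4 replicate 1, L4 replicate 3 and embryo replicate 3. The ratio of miR-52-3p fell by 2.89 in zen17 (limma adjusted p = 0.00560) and by 4.16 in wild type (limma adjusted p = 5.95e-04), as its star fell and its guide did not pass. The ratio of miR-34-3p, whose guide is conserved and tied to the response to DNA damage, fell by 4.05 in zen17 and by 3.94 in wild type (limma adjusted p = 2.85e-04 and 0.00228). There the guide rose at L4 by 2.38 in zen17 and 4.85 in wild type. In wild type embryos the ratio of miR-34-3p rests on 7, 3 and 7 star counts and 14, 17 and 10 guide counts. The ratio of miR-1820-3p rose at L4, by 2.56 in zen17 and 3.53 in wild type, and that of miR-66-3p rose by 2.73 in wild type. Both rest on few embryo counts and were tested through their L4 counts. miR-1820-3p had 6, 8 and 8 counts in zen17 embryos and 1, 1 and 2 in wild type embryos. miR-66-3p had 9, 5 and 1 counts in wild type embryos. Several of these ratios are set by the pseudocount. Those of let-7-3p in both genotypes and of miR-237-3p and miR-48-3p in wild type rest on 0 or 1 star counts in embryos, and that of miR-1818-3p in zen17 on a guide with 0 counts in all 6 libraries. The guide miR-800-5p was at 0 in zen17 embryo replicates 1 and 3, and the ratio of miR-800-3p went to -0.88 in place of -2.97 with a pseudocount of 5 and was no longer called. Of the strands that reached 10 counts at both stages, 8 of 25 ratios passed in zen17 (0 higher, 8 lower) and 4 of 19 in wild type (1 higher, 3 lower).

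The change by genotype was tested between stages with an interaction term, as the log2 change of zen17 against wild type at L4 minus that in embryos. Of 33 star strands 1 passed, where 4.8% of all 250 strands tested passed (0.8% higher, 4.0% lower): miR-239a-3p, at -3.10 (SE 0.58, edgeR adjusted p = 0.00261). It was 2.59 higher in zen17 embryos than in wild type embryos, and at -0.33 (edgeR adjusted p = 0.582) in zen17 L4 larvae, which held 17.0, 23.4 and 14.8 ppm against 28.0, 22.9 and 19.2 ppm in wild type L4 larvae. The guide miR-239a-5p passed the same test, at -4.95 (SE 0.66, edgeR adjusted p = 2.89e-04). In wild type, miR-239a-3p was higher at L4 than in embryos by 3.49 (edgeR adjusted p = 1.34e-05), and in zen17 by 0.22 (edgeR adjusted p = 0.601).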

How the data were processed

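Small RNA was size selected on gels, made into libraries with a NEXTflex kit and sequenced on an Illumina NextSeq by the authors. The deposited values are raw read counts per mature strand, with star strands marked. The submitters' processing notes name cutadapt 1.15 and Bowtie; the genome build and how multiply matching reads were counted are not given in the sources used here, so strands with near-identical copies are uncertain.

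Shares in ppm are counts over the table total of a library. Levels were tested with edgeR 4.0.16 (quasi-likelihood, TMM, R 4.3.3) on the libraries compared, for strands with at least 10 counts in as many libraries as the smaller group holds (3 for the interaction), with p-values adjusted over all strands tested and a threshold of 0.05. Log2 fold changes come from the edgeR fit at its default prior count. A prior count of 2 was used only for the log2 values in the check of replicate numbers below. Standard errors were derived from the test statistic. Star to guide ratios were tested with limma 3.58.1, and summed shares with exact two-sided permutation tests (scipy 1.17.1). The tests were checked on simulated counts. Replicate numbers did not pair the libraries: same-numbered libraries had correlations of their deviations between -0.36 and 0.17.

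The 35 strands and the families were chosen with earlier results of these data known. Named strands are the 8 with the highest mean share, all called between genotypes or by the interaction (for tm5522 against zen17 and for stage, the 4 largest in each direction), and the families. Alternatives were other size factors, DESeq2 1.42.0, other count filters, a fit over all 14 libraries, a replicate block, a pseudocount of 5 and each library left out in turn. Counting limits and intervals cover counting error only. Figures were drawn with matplotlib 3.10.9.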

Additional observations from a re-analysis of the deposited data

Results flagged for a closer look

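The difference between stages in the effect of zen17 on miR-239a-3p, at -3.10 on the log2 scale (L4 minus embryo, edgeR adjusted p = 0.00261), stands out because the interaction was itself tested and passed. Its 6 embryo libraries separate by genotype (9.70, 30.6 and 8.31 ppm in zen17, against 1.10, 1.56 and 3.65 ppm in wild type) and its 6 L4 libraries overlap (17.0, 23.4 and 14.8 ppm in zen17, against 28.0, 22.9 and 19.2 ppm in wild type). The call held in all 18 alternatives, with values between -3.50 and -2.50. The wild type embryo values of miR-239a-3p rest on 12, 12 and 7 counts.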

How the results depend on the processing

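No called level or ratio of a single strand changed direction in any alternative. Over single levels, 626 values kept their call and 87 lost it, and over single ratios 298 and 69. The summed share in zen17 against wild type embryos (-219 ppm) turned to 15.0 ppm without miR-229-3p, and lay between -433 and 145 ppm with 1 library left out, the highest without wild type replicate 3. Of the counts of called levels, zen17 against wild type embryos (4) was 1 with library totals as the scale, 2 where a mean of 100 counts was required and 1 to 4 with 1 library left out. zen17 against wild type L4 larvae (0) was 1 with library totals, 1 with DESeq2 and 0 to 1 with 1 library left out. tm5522 against wild type L4 larvae (6) was 10 with DESeq2, 10 with a fit over all 14 libraries and 0 to 14 with 1 library left out. tm5522 against zen17 (9) was 2 with a mean of at least 100 counts, 3 with the fit over 14 libraries and 5 to 14 with 1 library left out. The stage counts (19 in each genotype) were 8 in zen17 and 8 in wild type with a mean of at least 100 counts, where fewer strands are tested. The interaction (1) was 2 with library totals, 3 with DESeq2, 2 with no filter and 1 to 2 with 1 library left out. Of the counts of ratios, tm5522 against wild type (13) was 8 with a mean of at least 100 star counts and 3 to 14 with 1 library left out, tm5522 against zen17 (11) 6 and 5 to 13, and the stage ratios (11 each) 5 in zen17 and 5 in wild type with that minimum, 5 to 16 in zen17 with 1 library left out, and 17 in wild type with a pseudocount of 5. A replicate block, though the numbers did not pair the libraries, gave 2 levels in zen17 against wild type embryos, 5 levels and 6 ratios in tm5522 against zen17, and 1 ratio in zen17 against wild type embryos, and moved no other count by over 1.5 times. Apart from these filters the cause of the changes was not tested. In wild type embryo replicate 3, the shallowest library, 12 of the 35 strands reached 10 counts.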
